A study of Homo sapiens with 2 samples.

Results

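The kinase module of Mediator is encoded by the 6 genes MED13, MED13L, MED12, CDK8, CDK19 and CCNC, and the data are the RNA stretches that YBX1, a cold-shock domain protein that binds mRNA, occupied in their transcripts. Of the 2054 YBX1 binding sites in the list, 8 had their midpoint in the annotated span of a member gene on the same strand, and these 8 sites are the members described here. MED13 held 7 of them and MED13L held 1. The genes were selected on this measured number of sites, since MED13 was chosen for the 6 sites in its mRNA, so the counts below are a description and were not tested. The study mapped YBX1 by PAR-CLIP in HEK293, a human embryonic kidney cell line. Per the methods T-REx HEK293 Flp-In cells with stable overexpression of FLAG/HA-tagged YBX1 were used and the tag was precipitated with anti-FLAG M2, but the antibody named in the labels is one against YBX1. Cells were fed 4-thiouridine, which crosslinks to bound protein under UV light, and the lysate was cut with RNase T1, an enzyme that cleaves RNA after G. The 2 replicates form 1 group and were pooled by the authors into 1 list, so there is no untreated or knockdown group and no spread between replicates. The list gives positions and no read counts, so the depth behind each site is unknown. Expression in these cells was not measured here, cell identity could not be checked against markers, and a gene without a site may be unbound, scarce or not covered.

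Mediator is the large complex that carries signals from DNA-bound transcription factors to RNA polymerase II. Its kinase module docks reversibly onto the core complex and, while docked, hinders the contact between core Mediator and the polymerase. The module holds the cyclin-dependent kinase CDK8 or its paralog CDK19, cyclin C as the kinase's partner, MED12 as the activator of the kinase, and MED13 or its paralog MED13L as the link to core Mediator. YBX1 has been reported to prefer single-stranded RNA with the short motif CACC or CAUC and related C-rich and A-rich words. By the paper's account, earlier studies differed on the YBX1 motif, and its own analysis found a rather unspecific C-rich and A-rich pattern.

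The sequences of the 8 sites are shown because they carry what the member sites have in common. They are printed 5′ to 3′ on the strand of the mRNA, with T for U, read from hg38, and CACC and CAAC are in capitals.
MED13 exon 9, site 1, chr17:62011152-62011172, minus strand: CAACAACaaatacttcctaag
MED13 exon 9, site 2, chr17:62010849-62010872, minus strand: actaaaaCACCttCAACtcctcag
MED13 exon 9, site 3, chr17:62010744-62010764, minus strand: tctttccCACCtcaatatcag
MED13 exon 9, site 4, chr17:62010613-62010635, minus strand: tttttacCACCtCAACttccaag
MED13 exon 22, chr17:61961654-61961671, minus strand: ccacttcCAACatCAACc
MED13 3′UTR, chr17:61944417-61944436, minus strand: ctaataCACCacacattatg
MED13 intron 9, chr17:62007377-62007395, minus strand: ttaaaaacattctCAACtg
MED13L exons 14 and 15, spliced, chr12:115997228-116003017, minus strand: ttccttatcCACCAACag
Every one of the 8 held CACC or CAAC, a pair of words chosen after the sequences were seen, and none held a G before its last base. All but the exon 22 site ended in G, the base at which RNase T1 cuts.

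MED13, a subunit that links the kinase to core Mediator, carried 6 YBX1 sites in its mature mRNA and 1 in an intron. The gene (ENSG00000108510.10) lies on the minus strand of chromosome 17 at 61942605 to 62065278, and its MANE Select transcript, the agreed representative (ENST00000397786.7), has 30 exons and 10461 nt, of which 73 nt are 5′UTR, 6525 nt coding sequence and 3863 nt 3′UTR. The coding sequence held 5 of the 6 mRNA sites, the 3′UTR held 1 and the 5′UTR none. This made 0.574 sites per kb of mRNA (exact Poisson 95% interval 0.210 to 1.25, counting error only), with 0.766 per kb in the coding sequence and 0.259 per kb in the 3′UTR. Over the 1187 protein-coding genes with a site in the mRNA, MED13 included, 39.6% of 1650 sites lay in coding sequence and 59.1% in 3′UTRs. A site in the mRNAs of overlapping genes was counted for each of them. The MED13 sites thus stood mostly in the region that held the smaller share over all these genes. Coding sequence was also the longest part of the MED13 mRNA, at 6525 of 10461 nt, and these shares do not allow for length.

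Exon 9 of MED13 held 4 of the sites. It is a coding exon of 684 nt (chr17:62010550-62011233) that makes up 10.5% of the coding sequence and encodes codons 428 to 656. Site 1 covered codons 449 to 455 (mRNA bases 1418 to 1438), and site 2 covered codons 549 to 556 (bases 1718 to 1741). Site 3 covered codons 585 to 591 (bases 1826 to 1846) and site 4 codons 628 to 635 (bases 1955 to 1977). The gaps between them were 279, 84 and 108 nt, and the whole cluster spanned 560 nt. The next site followed 3268 nt downstream in exon 22, over codons 1725 to 1730 (bases 5246 to 5263). A further 3366 nt on, the 3′UTR site in the last exon began 2032 nt after the stop codon (bases 8630 to 8649) and left 1812 nt to the end of the transcript. The sites were therefore grouped in 1 stretch of the coding sequence, with the other two far from it and from each other.

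**Figure D1:**
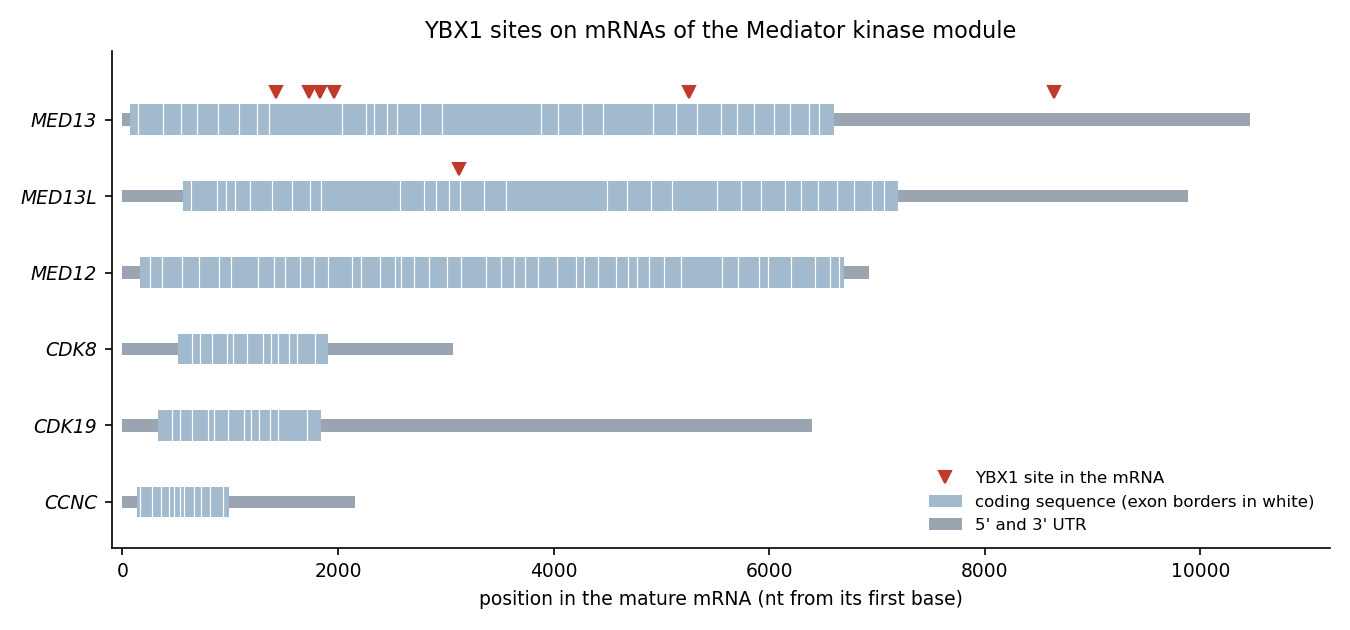
Mature mRNAs of the 6 member genes, drawn to scale in nt from the first base, with coding sequence as thick blue bars, exon borders in white and UTRs as thin grey bars. Red triangles mark YBX1 sites: 6 on MED13, 4 of them in exon 9, 1 on MED13L across the border of exons 14 and 15, and none on MED12, CDK8, CDK19 or CCNC.

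The seventh MED13 site lay in intron 9, 3155 nt past exon 9 and 12012 nt before exon 10. The same strand carries another annotated gene there, ENSG00000279133.1, a single-exon gene of the class TEC, whose transcript still awaits experimental proof (chr17:62003700-62007518), and the site began 123 nt after the first base of that gene. Among annotated transcripts its sequence occurred in that gene alone. RNA of MED13 before splicing and RNA of the overlapping gene cannot be told apart at this site, and with each site counted for 1 gene it fell to the overlapping gene, leaving MED13 with 6. Unlike the other sites it followed a T, not a G.

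MED13L, the paralog that takes the place of MED13 in part of the modules, had 1 site. The gene (ENSG00000123066.9, chr12:115957905-116277693, minus strand; ENST00000281928.9, 31 exons) has an mRNA of 9885 nt, with 562 nt of 5′UTR, 6633 nt of coding sequence and 2690 nt of 3′UTR, close in size to that of MED13. Its site was 1 of 5 rows of the list that were wider than 60 nt, the width of the widest other row, and was listed as 5790 nt wide and annotated by the authors as intronic. Both of its ends lay in exons. The last 15 bases of exon 14 (chr12:116003003-116003102) and the first 3 bases of exon 15 (chr12:115997010-115997230) flank an intron of 5772 nt, so in the spliced mRNA the site was 18 nt wide, at bases 3117 to 3134 and codons 852 to 858. That 18-nt sequence occurred nowhere in the genome as a continuous run and, among annotated transcripts, in those of MED13L only. It began after a G and ended in a G, as a complete RNase T1 fragment does. Of the 4 other wide rows, those in MTMR1 (5673 nt) and NAIF1 (1571 nt) also came to 60 nt or less in a spliced transcript, at 19 and 24 nt, while those in CERS2 (112 nt) and SPATS2L (43746 nt) did not. MED13L thus had 0.101 sites per kb of mRNA, against 0.304 in the median gene with a site. Among genes with a site and an mRNA of at least 8000 nt, the medians were 0.111 sites per kb and 1 site, near the values of MED13L.

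MED12, the activator of the kinase, had no site (chrX:71118543-71144103, plus strand, mRNA 6925 nt). No site was found for the kinase CDK8 (chr13:26254104-26420982, plus strand, 3065 nt) or for its paralog CDK19 (chr6:110609978-110815958, minus strand, 6399 nt). Cyclin C, from CCNC (chr6:99542387-99568825, minus strand, 2153 nt), had none either. No row of the list lay in any of these 4 spans on either strand, and the authors' gene names gave the same 7 and 1 sites for MED13 and MED13L. So 2 of the 6 module genes had a site, both of them link subunits, beside 6.81% of 20046 protein-coding genes, a share from which nothing is read here because the genes were chosen by their sites.

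Among other genes of the transcription machinery, sites were single or few. Of 26 core Mediator genes 2 had a site (7.69%, beside the 6.81% of all protein-coding genes). MED21, a small subunit of the Mediator middle module, had 2 sites in its 3′UTR, 199 and 330 nt after the stop codon. MED14, the scaffold subunit that joins the Mediator modules, had 1 site in intron 23, which held 10 G before its last base and 26.3% A and C and was thus unlike the module's sites. MED12L, the paralog of MED12, had none. Of 9 genes for other transcription kinases and their partners, 2 had a site (22.2%, beside the same 6.81%). CCNT1, the cyclin of P-TEFb, had 1 site in coding exon 9. CDK12, a kinase of elongating polymerase, had 1 in coding exon 14, with 5 inner G. Of 12 RNA polymerase II subunit genes, 3 had a site (25%, beside the same 6.81%). They were the catalytic subunits POLR2A, in coding exon 12, and POLR2B, in coding exon 7, and POLR2D, in the 3′UTR. The lists are short and were chosen with earlier results known, so nothing is read from these shares. The POLR2D sequence occurred 3 times in the genome, so its origin is uncertain. No other gene in these lists had more than the 2 sites of MED21.

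The number of sites placed MED13 among few genes. At least 6 sites in the exons of 1 transcript were held by 11 of 20046 protein-coding genes (0.0549%). Just inside the count that chose MED13 were, among others, EEF2, IRS4, NUFIP2 and TOMM20, also with 6 sites, and just outside it were 14 genes with 5. More sites were held by 5 genes, among them NUCKS1 with 10, CBX5 with 8 and TASOR2 with 8. Ordered by likeness to MED13 in the number of sites and then in the share of them in coding sequence, the nearest was EEF2, translation elongation factor 2, with 3 of 6 in coding sequence. IRS4, an insulin receptor substrate, and NUFIP2, an RNA-binding partner of FMRP, had 2 of 6. TOMM20, a receptor of the mitochondrial import pore, had all 6 in its 3′UTR. MED13, with 5 of 6, had more coding sites than any of these 4 genes. Its coding sequence was also longer, at 6525 nt against 438 to 3771 nt in these 4. Per kb of coding sequence, MED13 had 0.766 sites, fewer than EEF2 (1.16) and NUFIP2 (0.958) and more than IRS4 (0.530) and TOMM20 (0).

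**Figure D2:**
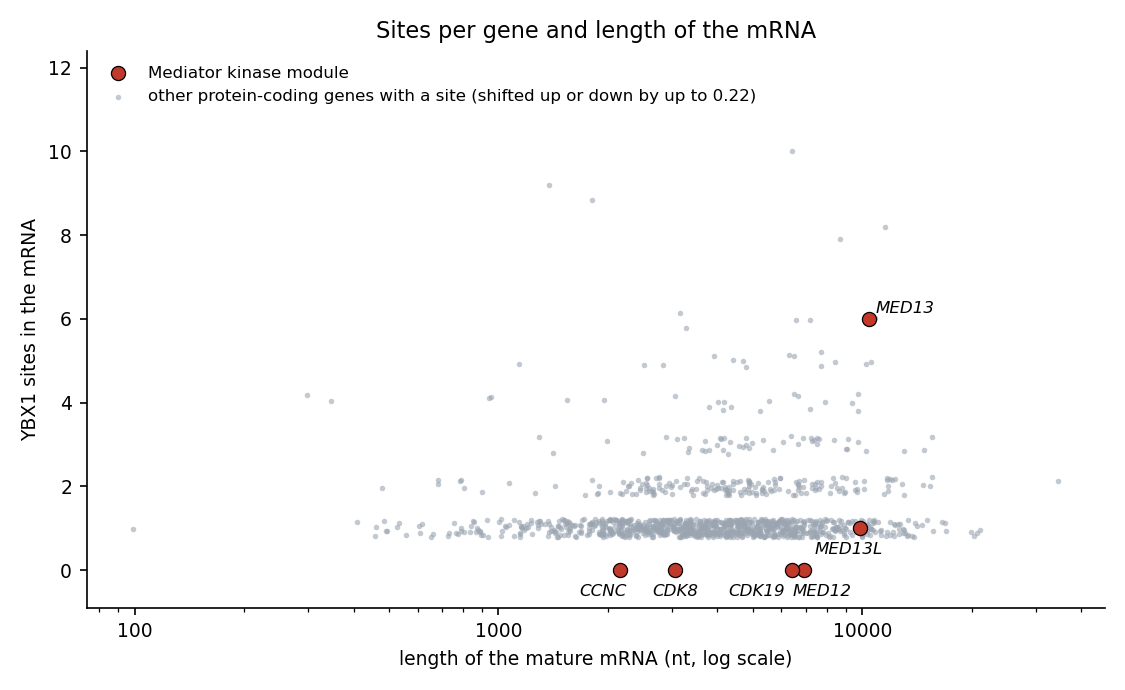
YBX1 sites in the mRNA (vertical axis) against the length of the mature mRNA in nt (horizontal axis, log scale). Red points are the 6 kinase module genes and grey points the other protein-coding genes with a site. MED13 stands at 6 sites and 10461 nt, MED13L at 1 site and 9885 nt, and the 4 other module genes at 0.

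Counted in coding sequence alone, 3 genes outside the mitochondrial chromosome had 5 or more sites, which were TASOR2 with 8, MED13 with 5 and ZNF850 with 5, and 19 had 3 or more. Outside the mitochondrial chromosome, a single coding exon with at least 4 sites was found in 4 genes. In MED13 the 4 sites of exon 9 spanned 560 nt of an exon of 684 nt. The 4 sites of SON spanned 1150 nt of a 5916-nt exon, and the 4 of TASOR2 spanned 1944 nt of a 3849-nt exon. The 5 of ZNF850 spanned 1872 nt of a 7325-nt exon, which exceeds the coding sequence of 3273 nt and so holds UTR as well. The MED13 exon was the shortest of the 4 and its sites spanned the fewest bases. Per length of mRNA, MED13 was less extreme. Its 0.574 sites per kb ranked 239 among 1187 genes with a site. Among the 151 of these with an mRNA of at least 8000 nt, where the median was 0.111 sites per kb, it held rank 4. That rank restates the count for which MED13 was chosen, since the median of these long mRNAs was 1 site. The limit of 8000 nt was not planned.

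The member sites were rich in A and C. Their mean A and C share was 69.6% (SD 7.99 over 8 sites, range 60.9% to 83.3%), against 60.4% (SD 12) over the 2049 sites of the list that were up to 60 nt wide. C made up 34.9% of bases in member sites and 28.4% in all sites, A 34.8% and 32.0%, T 26.1% and 31.4%, and G 4.23% and 8.19%. The difference of the means was about the size of the spread between member sites, and as 7 of the 8 sites share 1 gene it was not tested. Member sites were 18 to 24 nt wide (median 20.5, in the spliced mRNA for MED13L), against a median of 22 nt over all sites, and held 3 to 8 T (median 5), the base that 4-thiouridine replaces in RNA, against a median of 7.

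Each site was also set beside all windows of its own width in its own exon or intron. The exon 9 sites had 76.2%, 75%, 61.9% and 60.9% A and C, against window means of 55.5%, 55.4%, 55.5% and 55.4%, with window SDs of 12.3 to 13 points. Sites 1 and 2 thus lay more than 1 SD above their exon, while sites 3 and 4 lay within 1 SD of it. At 83.3% against 49.2% ± 10.8 (SD over windows), the exon 22 site was above every window of its exon that touched no site, of which the richest had 72.2%. The 3′UTR site had 70.0% against 46.6% ± 13.2, the intron site 63.2% against 45.6% ± 13.5, and the MED13L site 66.7% against 52.0% ± 10.8. All 8 sites were above their window mean, by 5.44 to 34.1 points. The sites held 0% to 5.56% G, against window means of 16.9% to 24.9%, so the lack of G enters these differences. T was above the window mean in exon 9 sites 3 and 4 (33.3% and 34.8%, both against 23.3%). It was also above it in the MED13L site (27.8% against 23.1%) and below it in the others.

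**Figure D3:**
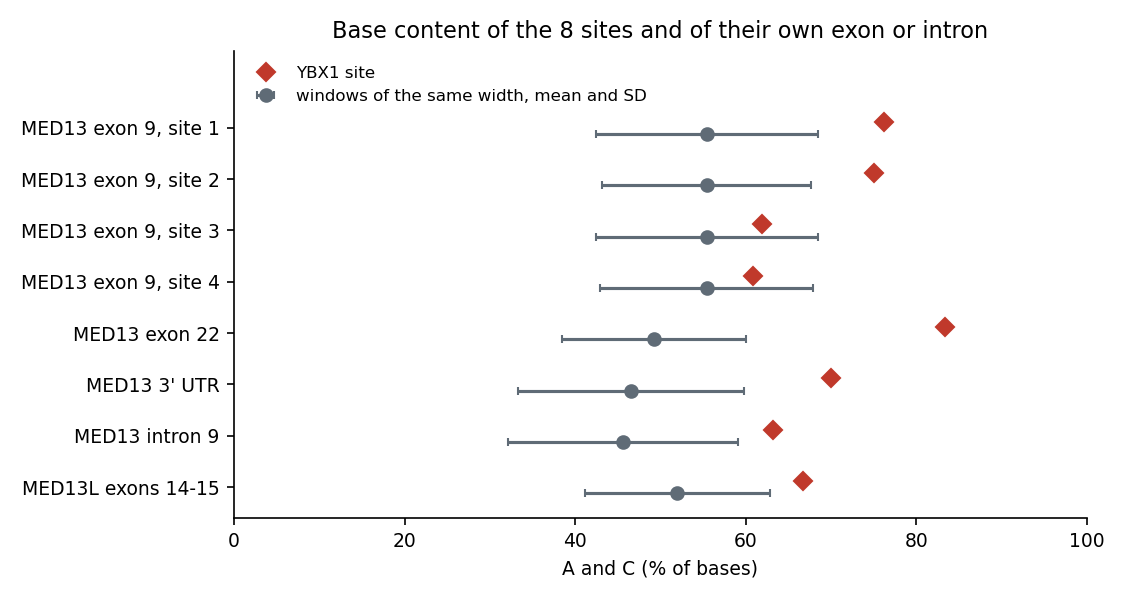
Share of A and C in percent of bases (horizontal axis) for each of the 8 sites (red diamonds) and for all equally wide windows of its own exon, 3′UTR or intron, or of both exons joined for MED13L (grey points, mean and SD over windows). Each site lies right of its window mean, and sites 3 and 4 of exon 9 lie inside 1 SD.

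Short motifs were shared by most of the sites. CACC was present in 5 of 8 member sites (62.5%) and in 299 of 2049 sites of the list (14.6%, Wilson 95% interval 13.1% to 16.2%, counting error only). CAAC was present in 6 of 8 (75%) and in 26.6% of all sites, and AACA in 5 of 8 and 30.9%. AACT was found in 3 of 8 and 28.2%, and CATC in 1 of 8 and 25%. All 8 held CACC or CAAC, against 37.2% of all sites. Motifs were read on the strand of the site, and CACC and CAAC overlap by 1 base in the MED13L site. These are descriptions, since sites of 1 gene are not independent.

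Sites 3 and 4 of exon 9 shared the longer word CACCTCAA, which was noticed only after the sequences had been read. In the sequences printed above it begins at the capital CACC in both. The word occurred in 6 sites of the whole list (0.293%), which were these 2 and 1 each in ANKRD28, BTAF1, PCLO and ZYG11B. The MED13 mRNA held it 5 times, 3 times in exon 9 and once each in exon 16 and in the 3′UTR. The exon 9 copy outside these sites, at base 1662, lay in a G-free stretch of 28 nt that was not a site, and the copies at bases 3003 and 8831 lay in stretches of 30 and 19 nt that were not sites either. The word alone therefore did not mark the MED13 sites.

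RNase T1 cuts after G, so the sites were compared with certain stretches of the mRNA. These were all stretches of 17 to 30 nt that follow a G, end in the next G and have no G between. Sites are not confined to such stretches, since only 77.55% of all sites had no G before their last base. Such complete fragments made up 6 of the 8 member sites, the exceptions being the exon 22 site, which ended in C inside a 22-nt stretch, and the intron site, against 64.7% of all sites. A stretch was counted as a site only where the site filled it from end to end, so the stretch that holds the exon 22 site counts among the others below. The MED13 mRNA had 74 such stretches, and 5 of them were sites (6.76%), a share that in part restates the count for which MED13 was chosen. MED13L had 46, of which 1 was a site (2.17%), and over all protein-coding genes with a site 1190 of 28872 stretches were sites (4.12%). MED12 had 12, CDK8 19, CDK19 39 and CCNC 13, none of them a site. The low number in MED12, whose mRNA is 6925 nt long, went with a G content of 25.8%, against 19.5% in MED13, and the part of G content was not tested.

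Exon 9 of MED13 held 8 such stretches, and 4 of them were sites. The 4 sites had 60.9% to 76.2% A and C and the 4 others 52.6% to 78.6%, so the ranges overlapped. CACC was in 5 of the 8, of which 3 were sites. Over the whole MED13 mRNA, 16 stretches held CACC and 4 of these were sites, while 58 had none and 1 of these was a site. The stretch of the exon 22 site is 1 of the 58. Median A and C content was 70.0% in the 5 stretches that were sites and 56.7% in the 69 others, of which 27, the stretch of the exon 22 site (77.3%) included, had at least as much A and C as the poorest site. Neither A and C content nor CACC alone separated the MED13 sites from the rest of its mRNA.

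**Figure D4:**
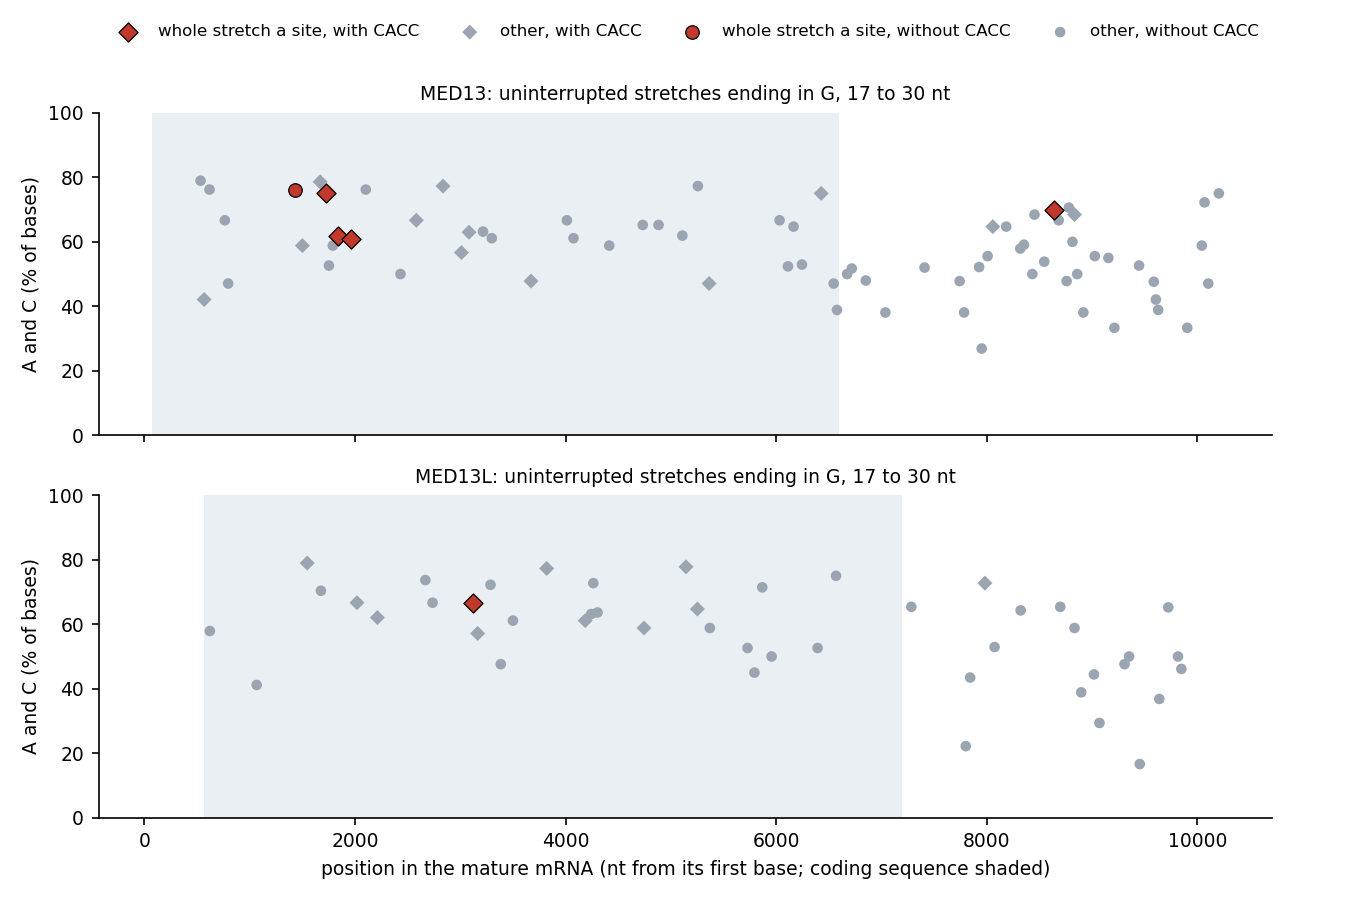
Uninterrupted stretches of 17 to 30 nt between G bases in the MED13 mRNA (top) and the MED13L mRNA (bottom), by position in nt (horizontal axis, coding sequence shaded) and A and C share in percent of bases (vertical axis). Red symbols are YBX1 sites, 5 in MED13 and 1 in MED13L, grey symbols are stretches that no site filled from end to end (1 in MED13 holds the shorter exon 22 site), and diamonds hold CACC. Sites and other stretches overlap in A and C content.

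CACC was present in all 6 module mRNAs. It occurred 45 times in the MED13 mRNA (4.30 per kb), 4 of them inside a site, and 44 times in MED13L (4.45 per kb), 1 of them inside its site. MED12 held 51 (7.36 per kb), CDK19 27 (4.22 per kb), CDK8 9 (2.94 per kb) and CCNC 2 (0.929 per kb). MED12 thus had the most CACC per kb of the 6 mRNAs and no site.

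MED13 and MED13L differed at the sites. Their proteins have 2174 and 2210 amino acids, and over 2071 aligned residues they were 59.0% identical in amino acid sequence and 60.3% in coding sequence. In exon 9, which aligned with exon 10 of MED13L over 212 of 229 codons, identity was lower, at 38.7% of amino acids and 48.6% of bases. The MED13L stretches that aligned with the 4 exon 9 sites matched in 8 of 21, 11 of 21, 5 of 18 and 11 of 23 bases. They held 0, 4, 4 and 6 G before their last base, whereas the MED13 sites held none. The exon 22 site was the best conserved, with 12 of 18 bases (66.7%), beside the 60.3% of the whole coding sequence. It is shown beside its counterpart, in which the G-free stretch is broken.
MED13 exon 22, chr17:61961654-61961671, minus strand: ccacttcCAACatCAACc
MED13L exon 23, chr12:115980816-115980833, minus strand: ccactgcctacacagatc
The MED13L stretch had 72.2% A and C, 2 inner G and neither CACC nor CAAC, against 83.3%, 0 inner G and 2 copies of CAAC in the MED13 site. In the other direction, the MED13 bases aligned with the MED13L site matched in 7 of 18 and held 4 inner G. They did not form a continuous run either. No MED13 site occurred as an exact copy in the MED13L mRNA, nor the MED13L site in that of MED13, and each of the 7 MED13 sequences occurred once in the genome, so the sites of the paralogs could be told apart.

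Exon 9 of MED13 and the aligned exon 10 of MED13L, which is 732 nt long, also differed in the stretches they offered. MED13 exon 9 held 8 G-free stretches of 17 to 30 nt, and MED13L exon 10 held 2, with 62.1% and 66.7% A and C. Both stretches of MED13L held CACC, and neither was a site. G content was 19.4% in MED13 exon 9 and 23.1% in MED13L exon 10, while A and C content was 57.0% in the MED13 exon and 55.6% in the MED13L exon. CACC occurred 10 times in the MED13 exon and 7 times in the MED13L exon, and CACCTCAA 3 times in the MED13 exon and not at all in the MED13L exon. The part that these differences had in the number of sites was not tested.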

How the data were processed

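YBX1 PAR-CLIP of HEK293 cells (2 replicates, 1 group) was given as 1 pooled list of 2054 sites. Before deposit, the authors had removed adapters with cutadapt 1.4.1, mapped reads onto GRCh38 (hg38) and a transcriptome by the PARA-suite, called sites in BMix (default settings) and assigned genes and classes by HOMER. The submitters' processing notes also name deepTools 2.5.7. The deposited values used were start and end coordinates, strand, gene and annotation, with no depth. Coordinates were read as 1-based with the last base 1 before the listed end, where the terminal G of RNase T1 fragments lies on both strands.

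Genes, exons and MANE Select transcripts came from GENCODE release 44, and sequences from hg38. A site belonged to a gene whose span held its midpoint on its strand, and rows with end minus start above 60 were flagged. The wide MED13L row was read through its splice junction. For the base content of a site, windows of its width in its exon or intron that touched no site were used. MED13 and MED13L were aligned as proteins (Biopython 1.88, gap opening 10, extension 0.5) and the codons were carried over. Python 3.11.15, pandas 2.3.3, numpy 2.4.6, scipy 1.17.1 and pysam 0.24.0 were used.

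The members and the gene lists were chosen with earlier results of these data known. The text names the 6 members, each listed Mediator, kinase or polymerase gene with a site, the 5 genes most like MED13 by site count and then coding share, and genes with as many sites. An item that this rule covers is not reported here. Other genes, motif combinations and the neighbours in exon length were chosen after their values were seen. No test was made, because 1 pooled list has no replicate spread. Wilson and Poisson intervals cover counting error only. Site placement was checked on simulated data: of 4997 sites placed in transcripts of the listed genes, 4997 were recovered.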

Additional observations from a re-analysis of the deposited data

How the results depend on the processing

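The number of sites was 8 for the module and 7 for MED13 with any overlap, both strands or the authors' gene names. The same 8 and 7 were found with only sequences that occur at most once in the genome, or with sites merged within 50 nt. The MED13L sequence, which has no continuous copy in the genome, was kept. With each site counted for 1 gene, an alternative added after seeing the data, the numbers were 7 and 6. The single 3′UTR site and the 2 core Mediator genes with a site did not change under these first 5 alternatives, nor the 3′UTR site with coding exons ranked first, 1 transcript per gene or the authors' class. Restricting the list to sites wider than the median of 22 nt left 3 module sites (the MED13L row by its listed width), 2 MED13 sites, 0 in the 3′UTR, 1 core Mediator gene and 0.191 sites per kb of MED13 mRNA. The mean A and C share of 69.6% moved to 54.8% when sites were extended by 10 nt on each side, which adds flanking bases. It was 66.4% with the last base at the listed end, 72.6% among A, C and U only, 70.1% in MED13 alone, 67.5% in wider sites and 70.6% in the mature mRNA only (added after seeing the data). No paired analysis was possible because both replicates were pooled into 1 list, and leaving out a replicate was not possible for the same reason. With no read counts, strong and weak sites could not be told apart.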
